A study of Mus musculus with 9 samples.

Results

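The genes described here are those of the transforming growth factor beta (TGF-beta), activin and bone morphogenetic protein (BMP) pathway, measured in fat cells after knockdown of the transcription factor Ebf1. They were chosen by name, as a list of 48 secreted ligands, latency proteins, antagonists, receptors, Smads and target genes, with no threshold on their values but with earlier results of these data known. Of the 48, 46 were found by a single gene symbol on the array, out of 18193 genes in all, and each was read from its brightest probe set, by the mean of all arrays. Bmp3 and Gdf15 were not analysed here. Signal was high enough for a test in 39 of the 46, meaning a mean of at least 5.72 on the log2 scale of the array, which is the 30th percentile of all genes. The 7 others were the BMP and GDF ligand genes Bmp2, Bmp4, Bmp6 and Gdf10, the antagonist genes Fstl3 and Nog, and the receptor gene Bmpr1b.

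All samples were 3T3-L1 cells, a mouse preadipocyte line that is turned into fat cells in culture, infected as mature adipocytes. The 3 groups, of 3 arrays each, carried lentivirus with a scrambled control hairpin, with Ebf1 hairpin 1 or with Ebf1 hairpin 2, and the question of the series is which genes depend on Ebf1 in adipocytes. Cells of every group went through repeated infection and selection with puromycin, a drug that kills cells without the virus, so the controls share both. The titles call the arrays repeats and name no separate cultures, so p-values here reflect how far these arrays varied, and that variation may be technical.

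TGF-betas, activins and BMPs are secreted dimers that bring together type II and type I receptors with serine/threonine kinase activity. The activated receptors phosphorylate Smads: the TGF-beta and activin receptors act mainly through Smad2 and Smad3, the BMP receptors through Smad1, Smad5 and Smad9, and both kinds enter the nucleus with Smad4. TGF-beta is secreted in a latent form tied to the matrix, activins are held by follistatin, and many BMPs are held by antagonists such as gremlin, chordin and noggin. In fat tissue TGF-beta is known to hold back the differentiation of preadipocytes, while several BMPs promote it.

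Promoter sequence from RefSeq (assembly GRCm38.p6) was found for 35 of the 48 genes, as 44 windows of 300 bases that run from 250 bases before a start site to 50 after it. The bases before the start are shown for 4 genes that stand for the main patterns in the values of the brightest probe sets. On these, Inhbb rose with each hairpin and Fstl1 differed between the hairpins. Id2 and Id3, both target genes, moved in opposite directions. The sequences shown lie upstream of each gene at chr1:119422249-119422498 (Inhbb, minus strand), chr16:37776805-37777054 (Fstl1, plus strand), chr12:25096093-25096342 (Id2, minus strand) and chr4:136143572-136143821 (Id3, plus strand). Each is written 5′ to 3′ on the strand of its gene, and capitals mark a motif match.
Inhbb: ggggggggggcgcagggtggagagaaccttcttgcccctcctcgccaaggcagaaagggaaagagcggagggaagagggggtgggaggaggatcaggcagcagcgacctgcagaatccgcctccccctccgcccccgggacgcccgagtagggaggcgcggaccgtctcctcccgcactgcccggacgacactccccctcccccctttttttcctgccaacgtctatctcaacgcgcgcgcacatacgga
Fstl1: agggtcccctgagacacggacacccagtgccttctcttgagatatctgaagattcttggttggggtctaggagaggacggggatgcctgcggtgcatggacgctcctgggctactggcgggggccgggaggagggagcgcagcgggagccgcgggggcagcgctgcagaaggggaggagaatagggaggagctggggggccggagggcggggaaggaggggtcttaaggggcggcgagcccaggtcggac
Id2: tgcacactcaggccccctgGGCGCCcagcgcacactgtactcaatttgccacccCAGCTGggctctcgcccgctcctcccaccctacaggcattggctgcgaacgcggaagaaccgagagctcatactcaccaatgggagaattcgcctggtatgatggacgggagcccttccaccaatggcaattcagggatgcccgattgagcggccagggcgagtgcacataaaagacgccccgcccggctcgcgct
Id3: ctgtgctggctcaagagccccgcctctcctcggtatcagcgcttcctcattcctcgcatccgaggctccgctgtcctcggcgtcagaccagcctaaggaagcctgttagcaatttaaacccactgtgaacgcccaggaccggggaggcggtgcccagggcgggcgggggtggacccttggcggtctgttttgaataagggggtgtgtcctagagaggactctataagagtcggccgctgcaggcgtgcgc
The palindrome bound by Ebf proteins, TCCC followed after any 2 bases by GGGA, was searched on both strands and was present in 0 of the 44 windows, against 0.904% of 32851 promoters of the same length. The palindromic Smad element GTCTAGAC was present in 1 of the 44, that of Smad6, against 0.213% of all promoters. The GC-rich element GGCGCC that BMP Smads can bind was present in 15 of the 44 windows, of 13 genes, against 11.9% of all promoters, and the windows were also richer in G and C, with a median of 65.7% against 52.7%. The E-box CAGCTG was present in 5 of the 44 windows, of 4 genes, against 16.3% of all promoters. Of the 4 sequences shown, Id2 holds GGCGCC at -231 and CAGCTG at -196 from its start, and the other 3 hold none of these letters. A match is a description of the letters, not a binding site, and no match says only that these letters are not in that window.

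Ebf1 itself, the targeted gene, had a log2 signal of 10.19 ± 0.10 on scrambled arrays, 9.44 ± 0.11 on hairpin 1 arrays and 8.94 ± 0.24 on hairpin 2 arrays (SD, n = 3 per group). The fall was 1.69-fold with hairpin 1 and 2.38-fold with hairpin 2 (limma adjusted p = 0.000102 and 2.98e-07). Array medians lay between 6.31 and 6.38, and arrays of a group correlated by 0.994 to 0.998. Of the 9 arrays left out in turn, hairpin 1 repeat 1 changed the pathway calls most often, with 12 further calls made and 1 lost without it. Of the 6 adipocyte markers measured, 0 were called with hairpin 1 and only Cidec, a lipid droplet protein, was lower with hairpin 2. Their mean signal was 14.0 on every array. Adipoq, Fabp4, Lpl and Cd36 had means of 13.8 to 14.9, near the ceiling of the array, where differences are compressed. The preadipocyte or fibroblast markers moved with the groups: their mean signal was 10.3 to 10.5 on the scrambled arrays, 11.3 to 11.5 with hairpin 1 and 11.5 to 11.6 with hairpin 2. All 6 rose with hairpin 1, and with hairpin 2 5 rose and Dlk1 fell. The endothelial markers Pecam1, Cdh5, Tek and Vwf and the leukocyte markers Ptprc, Adgre1 and Itgam were below the signal needed for a test. Of the other leukocyte markers, Cd68 rose 2.26-fold with hairpin 2 (limma adjusted p = 3.3e-07), Laptm5 fell 2.34-fold and 3.54-fold (adjusted p = 0.00261 and 6.37e-05), and Csf1r and Cd14 were not called. Of 4 smooth muscle markers tested, Acta2 and Des rose with each hairpin, and Tagln and Myh11 fell with hairpin 2. The part of these markers in the results was not tested. The cells were measured in bulk, so a change in the share of one kind of cell and a change in RNA per cell cannot be told apart.

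Ligand, latency and receptor genes of the pathway included many that rose with the hairpins, Fst and Fstl1 differed most between the hairpins, and most Smad genes were not called. With hairpin 1, 17 of the 39 genes tested rose and 3 fell, where rising or falling means a limma adjusted p below 0.05 over all 12735 genes tested. Over all genes, 23.7% rose and 9.23% fell with this hairpin, 33.0% in either direction, against 51.3% of the pathway genes. With hairpin 2 the counts were again 17 and 3, against 21.5% and 13.3% of all genes (34.8% in either direction). The median difference of the 39 was 0.13 with hairpin 1 and 0.20 with hairpin 2, against 0.07 and 0.02 over all genes tested. The arrays of a hairpin did not overlap the scrambled arrays for 21 genes with hairpin 1, where 43.4% of all genes did not, and for 30 genes with hairpin 2, where 49.4% did not. Between the hairpins themselves, 11 of the 39 were higher with hairpin 2 and 11 lower, against 11.6% and 17.4% of all genes (29.1% in either direction). Their arrays did not overlap for 24 of the 39, where 35.6% of all genes did not. In all, 28 of the 39 were called in at least 1 of the 3 comparisons and 11 in none. The same share over all genes was not computed, so these 2 counts have no background beside them. After quantile normalization of the arrays the hairpin 2 counts were 17 higher and 7 lower. They were 20 and 6 without hairpin 1 repeat 1 and 18 and 6 without hairpin 1 repeat 2. Over all 12735 genes, 2740 were higher and 1690 lower with hairpin 2 in the main fit. Those counts were 2724 and 2056 after quantile normalization, 3095 and 1952 without hairpin 1 repeat 1, and 2883 and 1806 without repeat 2. Hairpin 1 and hairpin 2 were each compared with the same scrambled arrays, so their values are given side by side and were not counted as separate evidence.

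**Figure D1:**
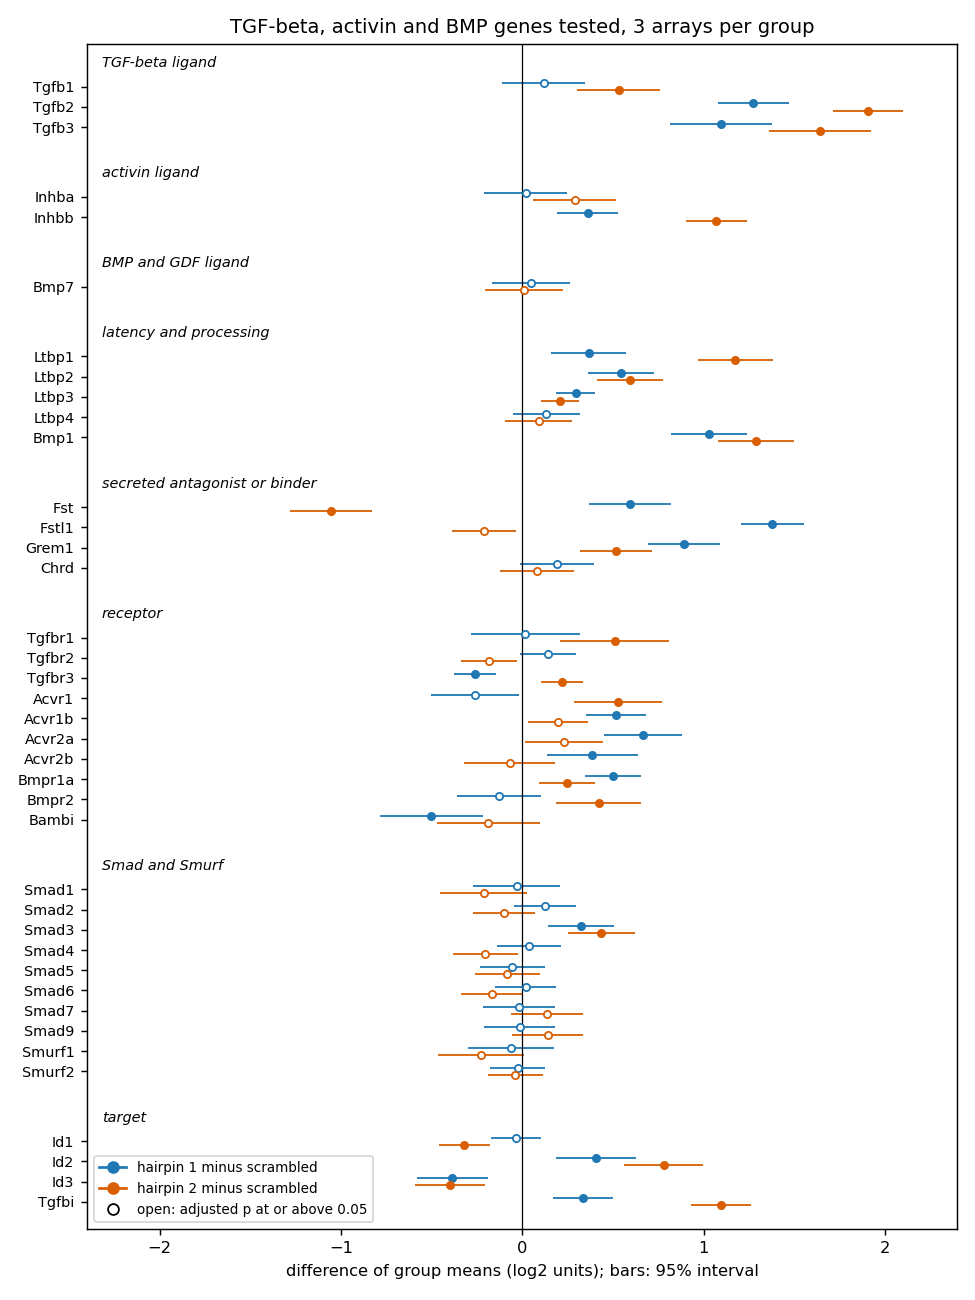
Log2 differences of the 39 tested genes from the scrambled arrays, with 95% intervals, ordered by role, for hairpin 1 and hairpin 2. The TGF-beta ligand genes Tgfb2 and Tgfb3 lie well to the right for each hairpin, Fst and Fstl1 lie on opposite sides of zero, and most Smad and Smurf genes lie close to zero.

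All 3 TGF-beta genes were higher with hairpin 2, and Tgfb2 and Tgfb3 also with hairpin 1. Tgfb2, which encodes one of the 3 TGF-beta ligands, read 7.47, 7.27 and 7.21 on the scrambled arrays, 8.61, 8.58 and 8.58 with hairpin 1 and 9.24, 9.16 and 9.28 with hairpin 2. The 3 groups did not overlap and stood in that order. Its signal rose 2.42-fold with hairpin 1 (log2 difference 1.27, SE 0.09, limma adjusted p = 4.03e-08) and 3.75-fold with hairpin 2 (1.91, adjusted p = 1.26e-10). It was 1.55-fold higher with hairpin 2 than with hairpin 1 (adjusted p = 7.62e-05). Tgfb3, a second ligand, read 7.12, 7.33 and 7.24, then 8.10, 8.50 and 8.38, then 8.73, 9.19 and 8.69 in the same order of groups. These groups again did not overlap, and Tgfb3 rose 2.14-fold with hairpin 1 and 3.12-fold with hairpin 2 (limma adjusted p = 1.24e-05 and 7.62e-08). Hairpin 2 exceeded hairpin 1 by 1.46-fold (adjusted p = 0.00537). Tgfb1, the ligand most studied in fibrosis, read 7.27, 7.41 and 7.58 on the scrambled arrays, 7.41, 7.60 and 7.61 with hairpin 1 and 7.97, 7.78 and 8.11 with hairpin 2. The hairpin 2 arrays stood clear of the scrambled ones and the hairpin 1 arrays did not, with a rise of 1.44-fold (log2 difference 0.53, SE 0.11, limma adjusted p = 0.00108), and the difference with hairpin 1 was 0.12 (adjusted p = 0.439). Hairpin 2 exceeded hairpin 1 by 0.41 (adjusted p = 0.00915), and this was not called when the probe sets of Tgfb1 were averaged (0.0617).

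Of the activin genes, Inhbb rose and Inhba missed the threshold. Inhbb encodes the beta B subunit, which forms activin B. Its values were 8.93, 8.88 and 8.90 with the scrambled hairpin, 9.23, 9.29 and 9.27 with hairpin 1 and 9.99, 9.93 and 10.0045 with hairpin 2. The groups did not overlap and the arrays within each group lay close together. Inhbb rose 1.28-fold with hairpin 1 (limma adjusted p = 0.00234) and 2.10-fold with hairpin 2 (adjusted p = 2.65e-08), and the hairpins differed by 1.64-fold (adjusted p = 5.99e-06). A second, dimmer Inhbb probe set was not called with hairpin 1 (0.11, limma adjusted p = 0.418 over probe sets). There Inhbb rose by 0.26 with hairpin 2 (adjusted p = 0.0468), and the difference between the hairpins was not called (0.15, adjusted p = 0.29). Inhba, the beta A subunit of activin A, read 7.20, 6.87 and 7.16, then 6.92, 7.26 and 7.11, then 7.32, 7.43 and 7.34. Its hairpin 2 arrays lay above all scrambled ones, with a difference of means of 0.29 log2 units at a limma adjusted p of 0.05005, and the value passed the threshold without hairpin 1 repeat 1 (0.0321) or repeat 2 (0.0392), or without scrambled repeat 1 (0.0458). Bmp7, the 1 BMP ligand gene with enough signal to test, differed by 0.05 and 0.01 log2 units with hairpin 1 and hairpin 2 (adjusted p = 0.769 and 0.97).

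**Figure D2:**
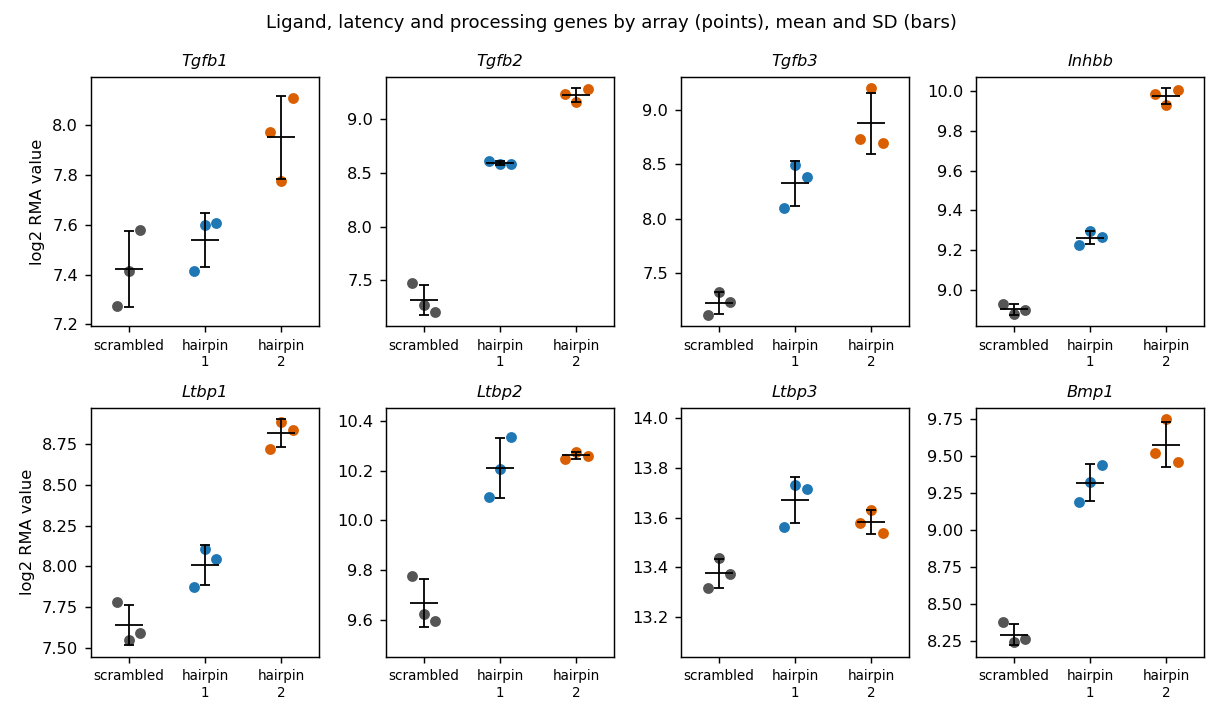
Log2 signal on each of the 9 arrays for ligand, latency and activation genes, with the group mean and SD as bars. Tgfb2, Tgfb3, Inhbb and Bmp1 step upward from scrambled to hairpin 1 to hairpin 2, while Ltbp2 and Ltbp3 sit higher with each hairpin and overlap between the hairpins.

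Genes for TGF-beta latency and for processing in the matrix rose with each hairpin in 4 of 5 cases. Of all genes, 23.7% rose with hairpin 1 and 21.5% with hairpin 2. Some of the latent TGF-beta binding proteins, though not all, tie the inactive ligand to matrix fibres. Bmp1 is a protease that trims procollagen and can cleave Ltbp1 and chordin. Bmp1 read 8.38, 8.24 and 8.26 on the scrambled arrays, 9.19, 9.33 and 9.44 with hairpin 1 and 9.53, 9.75 and 9.47 with hairpin 2. All 3 groups were separate, with rises of 2.04-fold and 2.44-fold (limma adjusted p = 1.18e-06 and 4.73e-08), and the difference between the hairpins did not pass the threshold (0.26, 95% interval 0.05 to 0.47, adjusted p = 0.0631). Ltbp1 read 7.78, 7.55 and 7.59, then 7.87, 8.10 and 8.05, then 8.72, 8.89 and 8.84. The hairpin 2 arrays lay far above the rest, 2.26-fold over scrambled (adjusted p = 1.09e-07). The hairpin 1 rise was 1.29-fold (adjusted p = 0.00868), and was not called without scrambled repeat 2 (0.0512) or when the probe sets of the gene were averaged (difference 0.12, adjusted p = 0.251). Ltbp2 read 9.78, 9.63 and 9.60, then 10.09, 10.21 and 10.33, then 10.25, 10.28 and 10.26. It rose by 1.46-fold and 1.51-fold (adjusted p = 0.000164 and 4.73e-05), and the hairpins differed by 0.05 (95% interval -0.13 to 0.23). Ltbp3 read 13.32, 13.44 and 13.38, then 13.56, 13.73 and 13.72, then 13.58, 13.63 and 13.54, so that both hairpins lay above scrambled and overlapped each other. It rose by 1.23-fold and 1.15-fold (adjusted p = 0.000302 and 0.00388), at a signal near the ceiling of the array, where differences are compressed. On its other 3 probe sets the rises were 0.48 to 0.72 log2 units with hairpin 1 and 0.54 to 0.57 with hairpin 2. Ltbp4, of the same family, differed by 0.13 and 0.09 and was not called. The preadipocyte or fibroblast markers rose with the same hairpins, as given above, and their part in these results was not tested.

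Of the 4 secreted antagonists tested, 3 were lower with hairpin 2 than with hairpin 1, against 17.4% of all genes. Against scrambled, 3 rose with hairpin 1, and with hairpin 2 1 rose and 1 fell. The shares of all genes were 23.7% higher with hairpin 1, and 21.5% higher and 13.3% lower with hairpin 2. Follistatin, encoded by Fst, binds activins and blocks them from their receptors. Fst read 8.80, 8.46 and 8.51 on the scrambled arrays, 9.04, 9.18 and 9.32 with hairpin 1 and 7.61, 7.46 and 7.53 with hairpin 2. The hairpin 1 arrays were all above the scrambled ones and the hairpin 2 arrays all below. Fst rose 1.51-fold with hairpin 1 (log2 difference 0.59, SE 0.11, limma adjusted p = 0.000499), fell 2.08-fold with hairpin 2 (-1.05, adjusted p = 1.05e-06) and was 3.14-fold lower with hairpin 2 than with hairpin 1 (adjusted p = 2.06e-08). Fstl1, a secreted relative of follistatin made by many mesenchymal cells, read 11.43, 11.11 and 11.18, then 12.52, 12.73 and 12.61, then 10.99, 11.06 and 11.03. Its hairpin 1 arrays stood far above the others. Fstl1 rose 2.60-fold with hairpin 1 (adjusted p = 5.19e-09), and was 3.01-fold lower with hairpin 2 than with hairpin 1 (adjusted p = 1.71e-09). Against scrambled, hairpin 2 differed by -0.21 (adjusted p = 0.058), and this was called on its second probe set (-0.48) and without scrambled repeat 2 (0.0266), hairpin 1 repeat 1 (0.0373) or hairpin 1 repeat 2 (0.0482).

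Grem1, the BMP antagonist gremlin, rose with each hairpin. It read 7.46, 7.49 and 7.28, then 8.37, 8.36 and 8.17, then 7.98, 7.94 and 7.86, with no overlap between any groups and the hairpin 1 arrays highest. The rises were 1.85-fold and 1.43-fold (limma adjusted p = 3.04e-06 and 0.000409), and hairpin 2 lay below hairpin 1 (log2 difference -0.37, adjusted p = 0.00696). Chrd, which encodes the BMP antagonist chordin, differed by 0.19 and 0.08 and was not called (adjusted p = 0.14 and 0.575), and its hairpin 1 difference passed without hairpin 1 repeat 1 (0.0177).

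**Figure D3:**
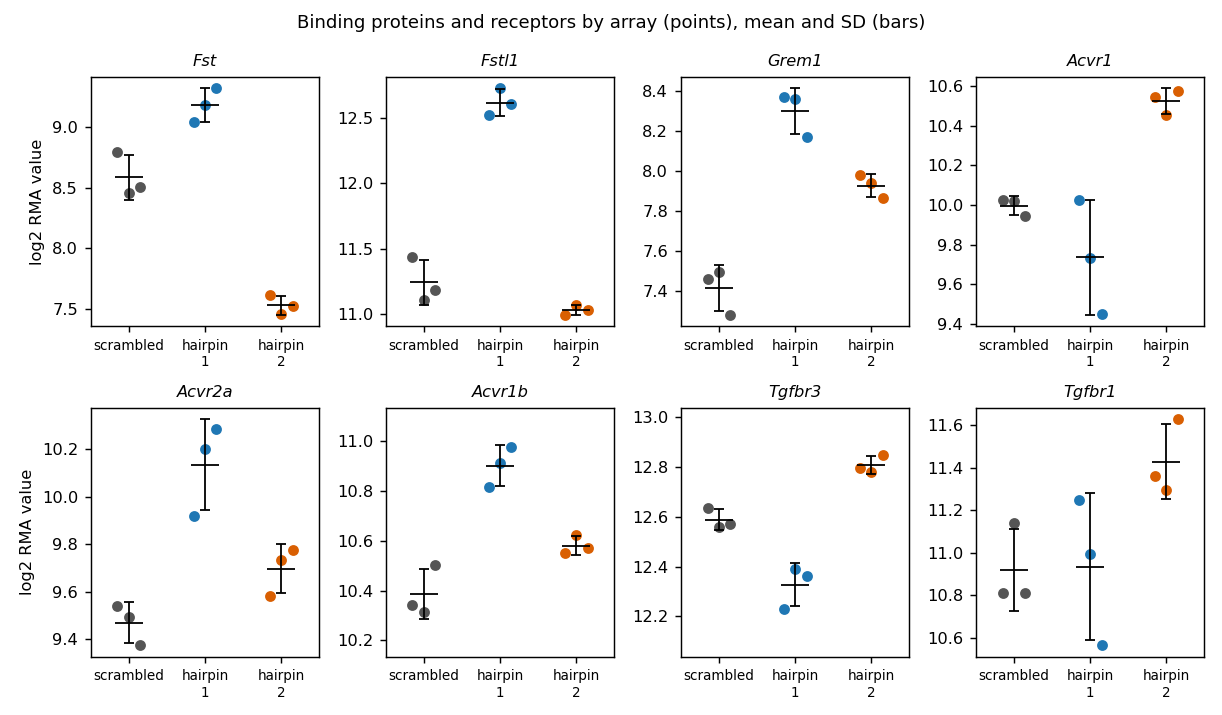
Log2 signal on each of the 9 arrays for 3 antagonist and 5 receptor genes, with the group mean and SD as bars. Fst and Fstl1 are highest with hairpin 1 and lowest with hairpin 2, while Acvr1, Tgfbr1 and Tgfbr3 are highest with hairpin 2.

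The receptors rose in part with each hairpin, and 9 of the 10 tested differed between the hairpins, against 29.1% of all genes. Against scrambled, 4 rose and 2 fell with hairpin 1, while 5 rose with hairpin 2 and 0 fell. The shares of all genes were 23.7% higher and 9.23% lower for hairpin 1, and 21.5% higher and 13.3% lower for hairpin 2. Among type I receptors, Bmpr1a, a main BMP receptor of mesenchymal cells, read 11.04, 11.05 and 10.97 on the scrambled arrays, 11.43, 11.57 and 11.56 with hairpin 1 and 11.25, 11.18 and 11.38 with hairpin 2. The groups were separate, with hairpin 2 between the others. Bmpr1a rose 1.41-fold with hairpin 1 (limma adjusted p = 8.21e-05) and 1.19-fold with hairpin 2 (adjusted p = 0.0145), the latter not called without scrambled repeat 3 (0.0694) or hairpin 2 repeat 3 (0.0837), nor with its probe sets averaged (0.082, adjusted p = 0.403). Hairpin 2 lay below hairpin 1 by 0.25 log2 units (adjusted p = 0.0169), which was not called without hairpin 1 repeat 3 (0.066), hairpin 2 repeat 1 (0.0627) or hairpin 2 repeat 2 (0.0764). Acvr1b, the type I receptor for activin, read 10.34, 10.32 and 10.50, then 10.82, 10.91 and 10.98, then 10.55, 10.62 and 10.57. It rose 1.43-fold with hairpin 1 (adjusted p = 0.000114), and the hairpin 2 difference of 0.20 missed the threshold (adjusted p = 0.0662), which passed without scrambled repeat 3 (0.0434) or hairpin 1 repeat 1 (0.0285).

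Tgfbr1 and Acvr1 were higher with hairpin 2 than in either other group. Tgfbr1, the type I receptor for TGF-beta, read 10.81, 11.14 and 10.81, then 11.25, 10.99 and 10.56, then 11.36, 11.30 and 11.63. The hairpin 1 arrays spread over the whole scrambled range, and the hairpin 2 arrays lay above both. The rise with hairpin 2 was 1.42-fold (limma adjusted p = 0.00997), and was not called without hairpin 2 repeat 3 (0.063). The difference between the hairpins, 0.49 (adjusted p = 0.0153), was not called without hairpin 1 repeat 3 (0.0814) or hairpin 2 repeat 3 (0.0859). Acvr1, a type I receptor that responds to BMPs, read 10.03, 10.02 and 9.94, then 10.03, 9.73 and 9.45, then 10.55, 10.45 and 10.58. It rose 1.44-fold with hairpin 2 (adjusted p = 0.00171) and was 1.73-fold higher there than with hairpin 1 (adjusted p = 8.11e-05). With hairpin 1 it differed by -0.26 from scrambled (adjusted p = 0.0941), a value of -0.41 that passed (0.00219) when hairpin 1 repeat 1, its highest array, was left out. The second Acvr1 probe set differed by 0.19 with hairpin 1 and was not called (adjusted p = 0.329).

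Of the type II receptors, Acvr2a and Acvr2b were highest with hairpin 1 and Bmpr2 with hairpin 2. Acvr2a, which binds activins and some BMPs, read 9.54, 9.49 and 9.37 on the scrambled arrays, 9.92, 10.20 and 10.28 with hairpin 1 and 9.58, 9.73 and 9.78 with hairpin 2. It rose 1.59-fold with hairpin 1 (limma adjusted p = 0.000115) and was 1.36-fold lower with hairpin 2 than with hairpin 1 (adjusted p = 0.00397). The hairpin 2 difference from scrambled, 0.23, was not called (adjusted p = 0.0973) and passed without hairpin 1 repeat 1 (0.0283). Acvr2b, its close relative, read 7.63, 7.63 and 7.43, then 7.66, 8.09 and 8.08, then 7.45, 7.63 and 7.38. Its rise of 0.39 with hairpin 1 (adjusted p = 0.0198) rested on repeats 2 and 3, and was not called without either of them (0.0949 and 0.0928) or without scrambled repeat 3 (0.0924). Hairpin 2 lay below hairpin 1 by -0.46 (adjusted p = 0.00851). With its probe sets averaged, neither Acvr2b difference was called (0.17, adjusted p = 0.074, and -0.17, adjusted p = 0.0764). Bmpr2, the BMP type II receptor, read 11.03, 10.93 and 10.85, then 11.05, 10.50 and 10.88, then 11.29, 11.34 and 11.43. The hairpin 2 arrays stood above all others, 1.34-fold over scrambled (adjusted p = 0.0066) and 1.46-fold over hairpin 1 (adjusted p = 0.00136). On its second probe set Bmpr2 was not called. There it differed from scrambled by 0.20 and 0.27, and between the hairpins by 0.07 (adjusted p = 0.184, 0.0664 and 0.697). Tgfbr2, the type II receptor for TGF-beta, read 10.79, 10.83 and 10.80, then 10.89, 11.06 and 10.89, then 10.64, 10.58 and 10.64. The differences from scrambled, 0.14 and -0.18, were not called, the second value at an adjusted p of 0.0625 that passed without hairpin 1 repeat 1 (0.0272) or repeat 2 (0.0289). It was 1.25-fold lower with hairpin 2 than with hairpin 1 on the brightest probe set (adjusted p = 0.00332). A second Tgfbr2 probe set gave the opposite call, 0.34 higher with hairpin 2. It also rose against scrambled, by 0.27 and 0.61 (limma adjusted p = 0.0465 and 0.000191 over probe sets). The direction for this receptor thus depends on the probe set.

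The co-receptor gene Tgfbr3 and the decoy receptor gene Bambi both fell with hairpin 1, and Tgfbr3 rose with hairpin 2. Tgfbr3, betaglycan, presents TGF-beta to its receptors and binds inhibin. It read 12.64, 12.56 and 12.57, then 12.23, 12.39 and 12.36, then 12.79, 12.78 and 12.85, with hairpin 1 below and hairpin 2 above every scrambled array. The fall was 1.20-fold and the rise 1.16-fold (limma adjusted p = 0.00167 and 0.00497), and neither was called when all its probe sets were averaged (0.111 and 0.133). The hairpins differed by 1.39-fold (adjusted p = 7.9e-06). Bambi, a decoy receptor without a kinase domain, read 6.80, 6.46 and 6.34, then 6.34, 5.76 and 5.98, then 6.34, 6.37 and 6.32. Its fall of 1.42-fold with hairpin 1 (adjusted p = 0.00915) came with arrays that met those of the scrambled group, close to the floor of the array, and was not called without scrambled repeat 1 (0.0605) or hairpin 1 repeat 2 (0.0628).

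Inside the cell, 1 of the 10 Smad and Smurf genes tested was called with each hairpin on its brightest probe set. That gene was Smad3, while 33.0% and 34.8% of all genes were called. Smad3, which carries TGF-beta and activin signals to DNA, read 9.55, 9.42 and 9.60 with the scrambled hairpin, 9.78, 9.96 and 9.81 with hairpin 1 and 9.89, 10.02 and 9.96 with hairpin 2. Both hairpins lay above every scrambled array, with rises of 1.25-fold (limma adjusted p = 0.00883) and 1.35-fold (adjusted p = 0.000846). The hairpin 1 rise was not called without scrambled repeat 2 (0.0597). The other 9 genes, the receptor Smads Smad1, Smad2, Smad5 and Smad9, the shared Smad4, the inhibitory Smad6 and Smad7 and the ubiquitin ligases Smurf1 and Smurf2, differed by -0.06 to 0.12 with hairpin 1. Their 95% intervals reached from -0.30 to 0.29. With hairpin 2 the 9 differences ran from -0.23 to 0.14, with intervals from -0.47 to 0.34. Smad4, at -0.20 with hairpin 2 (adjusted p = 0.0722), was called lower under 6 of 18 alternatives. Smad6, at -0.17 (adjusted p = 0.128), was called lower under 3, and Smad2 and Smurf1 under 1 each. Some dimmer probe sets of these genes were called against scrambled (limma, adjusted over probe sets). With hairpin 1, Smurf1 differed by 0.40 (adjusted p = 0.0203), Smad5 by 0.57 (0.00118) and Smurf2 by -0.29 (0.0482). With hairpin 2, Smad4 differed by -0.40 (0.00218), Smad2 by -0.37 (0.0064) and Smurf2 by -0.29 (0.0225). Their remaining probe sets were not called against scrambled. Smad2 read 10.17, 10.17 and 10.18 on the scrambled arrays, 10.23, 10.34 and 10.33 with hairpin 1 and 10.12, 9.96 and 10.14 with hairpin 2. Smad4, the partner of all receptor Smads, read 10.91, 10.97 and 10.89, then 11.00, 11.08 and 10.79, then 10.71, 10.63 and 10.81. The hairpins overlapped for Smad4 and not for Smad2. Hairpin 2 lay below hairpin 1 by -0.23 and -0.24 (adjusted p = 0.0441 and 0.0414), but these calls were lost under 12 and 13 of 18 alternatives. With single arrays left out, the Smad2 call held only without hairpin 1 repeat 1 or hairpin 2 repeat 3, and the Smad4 call only without hairpin 1 repeat 3 or hairpin 2 repeat 3.

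**Figure D4:**
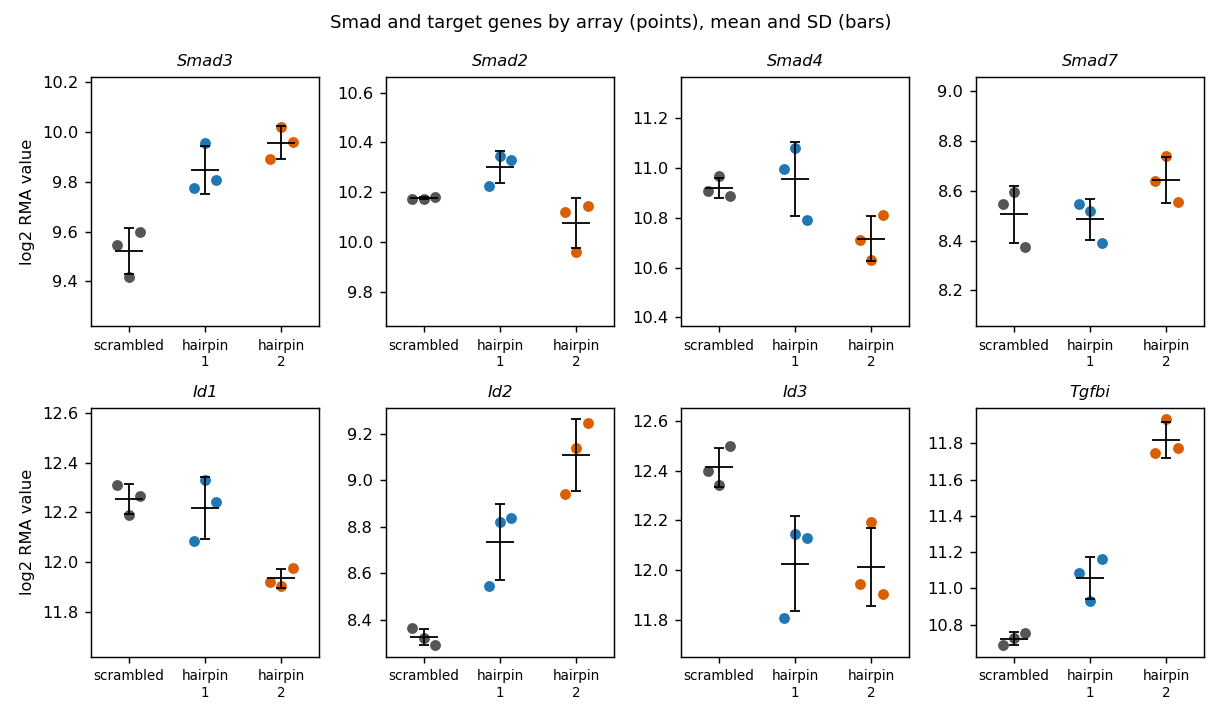
Log2 signal on each of the 9 arrays for 4 Smad and 4 target genes, with the group mean and SD as bars. Smad3, Id2 and Tgfbi are higher with each hairpin, Id3 is lower with each, Id1 is lower with hairpin 2, and Smad7 was not called in any comparison.

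The 4 target genes did not move together. Id1, Id2 and Id3 encode inhibitors of helix-loop-helix transcription factors, and Id1 and Id3 are widely used as readouts of BMP signalling. Id3 read 12.40, 12.34 and 12.50 on the scrambled arrays, 11.81, 12.15 and 12.13 with hairpin 1 and 11.94, 12.19 and 11.90 with hairpin 2. All hairpin arrays lay below all scrambled ones, and Id3 fell 1.31-fold and 1.32-fold (limma adjusted p = 0.00408 and 0.00262). Id1 read 12.31, 12.19 and 12.27, then 12.08, 12.33 and 12.24, then 11.92, 11.91 and 11.98. Hairpin 1 overlapped scrambled (difference -0.04, adjusted p = 0.725), and hairpin 2 lay below both, 1.25-fold under scrambled (adjusted p = 0.00114). Id2 went the other way, with 8.36, 8.32 and 8.29, then 8.55, 8.82 and 8.84, then 8.94, 9.14 and 9.24. The groups did not overlap, and Id2 rose 1.33-fold and 1.72-fold (adjusted p = 0.00639 and 1.93e-05), with a difference between the hairpins of 0.37 (adjusted p = 0.0128) that was not called without hairpin 2 repeat 3 (0.0607). Averaged over its probe sets, the Id2 difference with hairpin 1 was 0.05 (adjusted p = 0.657). On its second probe set Id2 differed by -0.36 with hairpin 1 and 0.32 with hairpin 2, neither called (limma adjusted p = 0.249 and 0.333 over probe sets). The hairpins differed there by 0.68 (adjusted p = 0.0375). Tgfbi, a matrix protein named for its induction by TGF-beta, read 10.69, 10.73 and 10.76, then 11.08, 10.93 and 11.16, then 11.75, 11.93 and 11.77. The groups were separate in that order, and Tgfbi rose 1.26-fold (adjusted p = 0.00331) and 2.14-fold (adjusted p = 1.55e-08).

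Most genes of the list, 30 of 46, had more than 1 probe set, which allows the same transcript to be read elsewhere in its sequence. Here each probe set was tested on its own, with adjustment over 31526 probe sets. Among genes called with hairpin 1, 13 of 26 other probe sets gave the same call, 13 were not called and 0 were opposite. With hairpin 2, 15 of 28 gave the same call, 12 were not called and 1 was opposite, a dim probe set of Bmpr1a at -0.40. For Tgfb2, a pair of further probe sets rose by 0.76 and 0.61 with hairpin 1 and by 1.54 and 1.44 with hairpin 2, and the remaining one, near the floor, was not called. The second Fst probe set differed by 0.48 with hairpin 1, which was not called at that level (limma adjusted p = 0.0835), and fell by 0.96 with hairpin 2. The second Fstl1 probe set rose by 1.23 with hairpin 1 and fell by 0.48 with hairpin 2. The other Tgfbi probe sets differed by 0.24 to 0.53 with hairpin 1 and by 0.64 to 1.14 with hairpin 2.

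**Figure D5:**
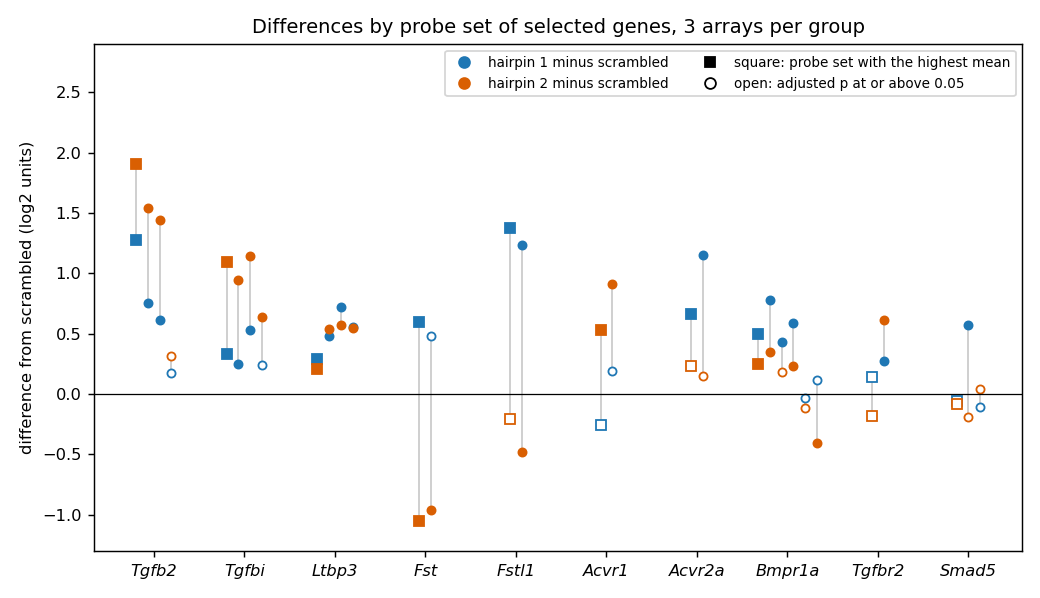
Log2 differences from scrambled for each tested probe set of 10 genes, in blue for hairpin 1 and orange for hairpin 2, with squares for the brightest probe set and open symbols where the adjusted p was at or above 0.05. The probe sets of Tgfb2, Tgfbi and Ltbp3 lie on 1 side of zero, with the dimmest Tgfb2 probe set nearest to it, while those of Tgfbr2 with hairpin 2 fall on either side.

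Beyond the 46 genes, a second list of 81 pathway genes gave 72 on the array and 56 tested. Hairpin 1 gave 16 higher and 6 lower calls and hairpin 2 gave 19 and 6, with median differences of 0.05 and 0.10, against 0.07 and 0.02 over all genes tested. The calls made up 39.3% and 44.6% of the 56, against 33.0% and 34.8% of all genes. Of 9 further ligand genes, 1 rose with hairpin 1 and 0 with hairpin 2, and of 19 intracellular partners, 3 were higher and 3 lower with hairpin 1, against 4 and 3 with hairpin 2. All 4 latency and activation genes were called with each hairpin. Emilin1, a matrix protein that holds back TGF-beta processing, rose by 1.32 and 1.80 log2 units (limma adjusted p = 1.68e-08 and 1.58e-10). Thbs1, thrombospondin 1, which can activate latent TGF-beta, rose by 1.35 with hairpin 1 and fell by 0.34 with hairpin 2 (adjusted p = 9.64e-10 and 0.00102). Itgav, the integrin alpha V chain that binds latent TGF-beta, rose by 0.65 and fell by 0.31 in the same order (adjusted p = 1.19e-06 and 0.00111). Thbs1 and Itgav thus showed the order of groups seen for Fst and Fstl1, with differences between the hairpins of -1.68 and -0.96.

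Of the 12 further target genes tested, hairpin 1 gave 4 higher and 1 lower, and hairpin 2 gave 7 higher and 1 lower. Over all genes, the shares were 23.7% and 9.23% with hairpin 1 and 21.5% and 13.3% with hairpin 2. Ccn1, a matrix signalling protein, rose by 1.27 and 1.04 log2 units (limma adjusted p = 8.26e-08 and 4.13e-07). Col1a1, a fibrillar collagen, rose by 1.69 and 1.98. Acta2, smooth muscle actin, rose by 0.97 with hairpin 1 and by 0.27 with hairpin 2 (adjusted p = 1.12e-06 and 0.0318). Tagln, the target gene that was lower with hairpin 2, fell by 0.43 (adjusted p = 0.0061) and was not called with hairpin 1 (0.16, adjusted p = 0.302). It was lower with hairpin 2 than with hairpin 1 by 0.58 (adjusted p = 0.000856). Col1a1 also stood in the preadipocyte or fibroblast list, and Acta2 and Tagln in the smooth muscle list. Snai2, a transcription factor of mesenchymal cells, differed by 0.07 with hairpin 1 (adjusted p = 0.563) and rose by 0.99 with hairpin 2. Klf10, an early TGF-beta response gene, fell by 0.38 with hairpin 1 and rose by 0.30 with hairpin 2 (adjusted p = 0.00173 and 0.00737). Pmepa1, a TGF-beta target that also restrains Smad activation, fell by 0.26 and rose by 0.26 (adjusted p = 0.0265 and 0.0217).

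Among co-receptors and inhibitors, Rgma, a BMP co-receptor, rose by 0.85 and 0.52 (limma adjusted p = 8.11e-06 and 0.000561). Its receptor Neo1, neogenin, fell by 0.66 with hairpin 1, and its hairpin 2 difference was 0.33 (adjusted p = 0.000722 and 0.0509). Dcn, decorin, a proteoglycan that binds TGF-beta, rose by 1.42 and 1.46. Ldlrad4, a membrane protein that inhibits TGF-beta signalling, rose by 0.60 and 0.80 (adjusted p = 0.000156 and 5.65e-06). The ubiquitin ligase Nedd4l fell by 0.31 and 0.55 (adjusted p = 0.00445 and 2.58e-05), and Tab2, an adaptor of the kinase Tak1, fell by 0.43 and 0.25 (adjusted p = 0.000224 and 0.0103).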

How the data were processed

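The authors deposited log2 values computed with RMA, per the submitters' processing notes, 1 value per probe set and array. Per the labels' protocols, a NuGEN kit amplified the RNA and biotin was the label. Of 45101 probe sets, 64 controls were left out, 34945 named 1 gene symbol and were used, 932 named several and 9160 none. Each of 18193 genes was represented by its brightest probe set (mean of 9 arrays). The 12735 genes at or above the 30th percentile (5.72 log2 units) were fitted in 1 model of 3 groups with limma 3.58.1 in R 4.3.3 (lmFit, eBayes with trend). P-values are two-sided and Benjamini-Hochberg adjusted over those genes, with a threshold of 0.05, and values are means ± SD of 3 arrays. Folds are antilogs of log2 differences and are compressed near the floor and ceiling of the array. The fit was tested on simulated data.

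The pathway genes and lists were chosen with earlier results of these data known. Named genes were all 46 measured pathway genes that the results turn on. From the second list, they were up to 15 called between the hairpins or in 1 direction with each, by smallest p. Of that list, 31 genes met this rule and 15 were named by it. Promoters came from RefSeq windows (GRCm38.p6), matched by symbol. All 46 genes matched an Entrez identifier. Alternatives were other filters, probe set means, quantile normalization, equal array medians, array weights, no trend, 2-group fits, a replicate block and each array left out in turn. Numbers of arrays, not read depth, limit the precision. 0 value columns were left unassigned.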

Additional observations from a re-analysis of the deposited data

Results flagged for a closer look

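For 6 genes the brightest probe set differed from scrambled with opposite signs for the 2 hairpins. At least 1 of those differences passed the threshold, and so did the difference between the hairpins (limma, hairpin 2 minus hairpin 1). On their brightest probe sets, Tgfbr2, Smad2 and Smad4 also had opposite signs and differed between the hairpins, but neither difference from scrambled passed. The secreted binders Fst and Fstl1 were lower with hairpin 2, by -1.65 and -1.59 log2 units. The activin receptor gene Acvr2b was lower by -0.46. The co-receptor gene Tgfbr3 was higher with hairpin 2 by 0.48, the BMP receptor gene Bmpr2 by 0.55 and the receptor gene Acvr1 by 0.79. Fst and Tgfbr3 also passed the threshold against scrambled with each hairpin, in opposite directions. For Fstl1, Acvr2b, Bmpr2 and Acvr1 only 1 of the differences from scrambled passed. Second probe sets gave the same sign with each hairpin for Acvr1 (0.19 and 0.91), Bmpr2 (0.20 and 0.27) and Acvr2b (0.11 and 0.10). Those of Fst, Fstl1 and Tgfbr3 again gave opposite signs.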

How the results depend on the processing

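Of the pathway genes called, 14 of 20 with hairpin 1, 17 of 20 with hairpin 2 and 14 of 22 between the hairpins kept their call under every alternative tried. With hairpin 1, 6 genes fell with array quality weights instead of 3, while over all genes 2222 fell instead of 1176. The median of 0.13 was 0.29 with a filter at the 50th percentile and 0.060 after quantile normalization. Over all genes tested, the median of 0.067 was 0.096 and 0.0092 under the same settings. With array quality weights, Tgfbr1 with hairpin 1 turned to -0.29 (adjusted p = 0.019). Genes of the second list then fell in 10 cases instead of 6 with hairpin 1 and in 16 instead of 10 between the hairpins. Over all genes, 3812 instead of 2219 were lower between the hairpins with these weights. With hairpin 2, 3 pathway genes fell, against 6 with the mean of all probe sets, 7 after quantile normalization and 5 with equal array medians. The count was 8 with array quality weights, 7 with only the 2 groups in the fit and 3 to 6 with 1 array left out. Over all genes 1690 fell with hairpin 2. In the same order of settings, that count was 1705, 2056, 1810, 2157 and 1981, and 1318 to 1952 with 1 array left out. The median with hairpin 2 was 0.20, against 0.13 without a filter and 0.11 with the mean of all probe sets. Over all genes tested, the same medians were 0.024, 0.0063 and 0.015. The median between the hairpins was -0.01, and -0.040 to 0.045 with 1 array left out. Over all genes tested it was -0.035, and -0.063 to -0.016 with 1 array left out. Averaged over its probe sets, Tgfbr2 differed between the hairpins by 0.055 (adjusted p = 0.548). The cause was not tested for any of these.

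The replicate block gave 17 genes higher and 3 lower with each hairpin, and 12 higher and 10 lower with hairpin 2 than with hairpin 1. Over all genes the block gave 3074 higher and 1207 lower with hairpin 1, and 2771 and 1699 with hairpin 2. Between the hairpins it gave 1523 and 2238. Repeat numbers did not pair the arrays: deviations from the group means correlated by -0.293 to 0.250 between arrays of the same number. Without hairpin 1 repeat 1, 12 further calls were made among the pathway genes and 1 was lost. Genes at the floor, such as most BMP ligands, and at the ceiling, such as Ltbp3, have compressed differences, and 3 arrays per group limit what could be seen.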

Other observations

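Among the 7 pathway genes too dim to test, single arrays lay between 4.40 and 5.85 on the log2 scale. Bmp4, a BMP that can commit mesenchymal cells to the fat lineage, read 4.96, 4.90 and 4.93 on the scrambled arrays, 5.14, 5.07 and 5.33 with hairpin 1 and 5.05, 5.28 and 5.05 with hairpin 2, all near the floor. Fstl3, a follistatin relative, read 5.70, 5.70 and 5.55, then 5.85, 5.74 and 5.82, then 5.71, 5.63 and 5.58. On its second probe set Smad5, a BMP receptor Smad, rose by 0.57 with hairpin 1 (limma adjusted p = 0.00118 over probe sets) and was lower by -0.76 with hairpin 2 than with hairpin 1 (adjusted p = 0.000133), while its brightest probe set was not called in either comparison.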
